A study of Homo sapiens with 6 samples.

Results

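The genes described here encode kinases that phosphorylate SR proteins, the serine- and arginine-rich splicing factors, together with their close DYRK relatives. The 10 members are CLK1, CLK2, CLK3, CLK4, SRPK1, SRPK2, PRPF4B, DYRK1A, DYRK1B and DYRK2. They were chosen by name, with no measured value in the rule, although earlier results of these data were known by then. They were matched by gene identifier to GENCODE release 29 symbols. They are 10 of the 58780 human genes in the deposited tables, and their 139 annotated transcripts are among 206761. All 10 genes, and 98 of the 139 transcripts, passed the filter on low counts.

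RNA was sequenced from HCT116, a human colorectal carcinoma line. One group of 3 biological replicates was labelled as auxin for 16 h and the other group of 3 as the DMSO control, DMSO being the usual solvent for auxin. Auxin is applied to engineered cells so that a protein fused to a degron is destroyed. The labels name neither that protein nor a tag, clone or degron line, and their genotype field holds the treatment itself, so nothing beyond the line and the treatment is known of what the groups share. The title of the series concerns the surroundings of nuclear speckles, the bodies in which SR proteins and other splicing factors collect.

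CLK kinases sit in the nucleus and phosphorylate the serine and arginine repeats of SR proteins, which releases these proteins from speckles. SRPK1 and SRPK2 act mainly in the cytoplasm and prepare newly made SR proteins for import, while PRPF4B, also called PRP4 kinase, acts on the spliceosome. DYRK kinases belong to the same kinase branch, activate themselves during their own translation, and act on many proteins besides splicing factors. CLK genes are known for a conserved exon whose skipping removes the kinase domain from the reading frame, and for introns around that exon which stay in nuclear RNA. SR protein phosphorylation is known to feed back on both.

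That exon is exon 4 of the main protein-coding transcript of all 4 CLK genes, numbered from the first exon of CLK1-201, CLK2-202, CLK3-201 and CLK4-201. It is shown because the transcript results below turn on whether it is spliced in, skipped or left between unspliced introns. The letters come from GENCODE release 29 transcripts that keep the flanking intron. They lie on GRCh38 at chr2:200860115-200860235 (minus strand) for CLK1, chr5:178617334-178617454 (minus strand) for CLK4, chr1:155268698-155268812 (minus strand) for CLK2 and chr15:74622100-74622226 (plus strand) for CLK3. Capitals mark the exon, after 20 bases of intron 3 and before 10 bases of intron 4.
CLK1: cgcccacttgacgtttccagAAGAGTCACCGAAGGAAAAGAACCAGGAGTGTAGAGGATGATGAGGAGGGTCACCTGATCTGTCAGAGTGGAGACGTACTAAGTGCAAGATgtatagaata
CLK4: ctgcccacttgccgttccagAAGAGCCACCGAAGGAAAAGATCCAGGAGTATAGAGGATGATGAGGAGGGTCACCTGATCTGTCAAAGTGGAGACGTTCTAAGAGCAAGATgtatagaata
CLK2: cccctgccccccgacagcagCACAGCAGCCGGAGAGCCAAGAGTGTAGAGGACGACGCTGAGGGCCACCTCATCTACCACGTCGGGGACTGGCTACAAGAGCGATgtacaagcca
CLK3: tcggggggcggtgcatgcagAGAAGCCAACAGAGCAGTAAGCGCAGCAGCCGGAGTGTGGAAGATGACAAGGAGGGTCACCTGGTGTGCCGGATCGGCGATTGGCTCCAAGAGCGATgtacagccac

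Exon 4 is 91 bases long in CLK1 and in CLK4, 85 in CLK2 and 97 in CLK3. Each length leaves a remainder of 1 when divided by 3, so a transcript without the exon is read in another frame after it. The CLK1 and CLK4 exons differ at 6 of 91 bases, an identity of 93.4%, while every other pair lay between 60.4% and 64.9%. The GC content of the exon was 48.4% in CLK1 and 47.3% in CLK4, against 61.2% in CLK2 and 58.8% in CLK3. The flanking introns are short, at 1022 and 378 bases in CLK1, 1121 and 395 in CLK4, 695 and 348 in CLK2 and 1894 and 277 in CLK3 for introns 3 and 4.

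The libraries held between 234037969 and 625895062 expected counts, and replicate 1 was the deepest of both groups. Of 9 colon epithelial markers, 6 had at least 1 TPM (a level scaled for transcript length and for the library's total) in every library, and VIL1, LGR5 and CEACAM5 were under 1 TPM in all 6. The summed TPM of the epithelial list lay between 1726 and 2377 in DMSO and between 2209 and 2650 after auxin. Summed over each list, fibroblast markers reached at most 2.62 TPM, with COL1A2, COL3A1 and DCN at 0.02 or less, immune markers 0.88 TPM, with PTPRC and CD3E at 0, and endothelial markers 0.08 TPM. In bulk RNA, a lower level in all cells and a loss from some cells cannot be told apart.

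After auxin, CLK1, CLK4, SRPK1, PRPF4B and DYRK2 rose and CLK3 fell. CLK2, SRPK2, DYRK1A and DYRK1B did not pass the test. The test was edgeR's quasi-likelihood test over 19725 genes with Benjamini-Hochberg adjustment and no block for the replicate number. A call needed an adjusted p under 0.05. Of all genes tested, 25.4% were called higher and 26.9% lower, 52.3% in all, so 6 called members of 10 are close to the background share. With the replicate number as a block, CLK2, DYRK1A and DYRK1B were called lower too, in a fit that called 69.9% of all genes. The median log2 fold change was 0.22 over the 10 members and 0.02 over all genes tested. Levels below are in CPM, counts scaled to the library's total after TMM factors, with the SD over 3 libraries.

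CLK1 stood at 20.0, 20.2 and 20.5 CPM in DMSO replicates 1, 2 and 3, and at 33.1, 32.9 and 31.5 CPM after auxin. All 3 auxin libraries lay above all 3 DMSO libraries. The log2 fold change was 0.68 with a standard error of 0.056 (adjusted p 6.74e-05), or 1.61-fold. CLK4, its closest relative in sequence, moved in the same direction from a lower level. It stood at 7.30, 7.06 and 7.42 CPM in DMSO and at 14.0, 13.9 and 12.9 CPM after auxin, again without overlap. Its log2 fold change was 0.91 with a standard error of 0.075 (adjusted p 7.35e-05), or 1.87-fold.

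CLK3 fell. Its levels were 40.1, 42.4 and 38.9 CPM in DMSO and 27.4, 24.4 and 26.8 CPM after auxin. Every auxin library lay below every DMSO library, and the log2 fold change was -0.63 with a standard error of 0.068 (adjusted p 0.000257), 1.54-fold lower. CLK2 was less even. It stood at 13.0, 12.4 and 11.3 CPM in DMSO and at 12.2, 5.67 and 6.40 CPM after auxin, so that auxin replicate 1 lay among the DMSO libraries and the other auxin libraries far below them. The log2 fold change of CLK2 was -0.59 with a standard error of 0.28 (adjusted p 0.113). Without auxin replicate 1 it was -1.02 (adjusted p 0.000239), and with the replicate number as a block it was -0.67 (adjusted p 0.00733), both past the threshold. CLK2 was called in 5 of the 17 alternatives, and leaving out any other library gave values as small as -0.39 and adjusted p up to 0.288.

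SRPK1, the most abundant member, was at 249, 273 and 291 CPM in DMSO and at 378, 434 and 430 CPM after auxin. The groups did not overlap, and the log2 fold change was 0.61 with a standard error of 0.086 (adjusted p 0.000897), or 1.53-fold. SRPK2 was at 74.7, 84.3 and 82.8 CPM in DMSO and 75.7, 87.6 and 87.0 CPM after auxin. Its ranges overlapped, and the log2 fold change was 0.05 with a standard error of 0.079 (adjusted p 0.633). PRPF4B, the third member named neither CLK nor DYRK, rose from 90.2, 98.5 and 103 CPM to 161, 194 and 183 CPM. Its groups did not overlap, and the log2 fold change was 0.88 with a standard error of 0.088 (adjusted p 0.000164), or 1.84-fold.

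Among the DYRK genes, DYRK2, which has roles in the stress response and in protein turnover, rose. Its levels were 68.6, 71.9 and 67.1 CPM in DMSO and 92.0, 95.8 and 85.8 CPM after auxin. The groups did not overlap, and the log2 fold change was 0.40 with a standard error of 0.061 (adjusted p 0.00131), or 1.32-fold. DYRK1A, a dosage-sensitive kinase of chromosome 21 studied for its part in brain development, was at 113, 108 and 108 CPM in DMSO and 107, 102 and 102 CPM after auxin. Every auxin library lay just below every DMSO library, and the log2 fold change of -0.08, with a standard error of 0.052, had an adjusted p of 0.222. With the replicate block the same value had an adjusted p of 0.0234.

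DYRK1B, a relative of DYRK1A linked to quiescence and muscle differentiation, was the least expressed member. It stood at 1.69, 1.06 and 0.983 CPM in DMSO and at 1.29, 0.870 and 0.677 CPM after auxin. The ranges overlapped, although each auxin library was below the DMSO library of the same number. The log2 fold change was -0.39 with a standard error of 0.30 (adjusted p 0.316), and -0.40 with an adjusted p of 0.00794 under the block. Leaving out single libraries moved the value between -0.69, without auxin replicate 1, and -0.099, without DMSO replicate 1, none of them past the threshold. With the block, 5 members were called higher and 4 lower, beside 35.5% and 34.4% of all genes, 69.9% in all.

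**Figure D1:**
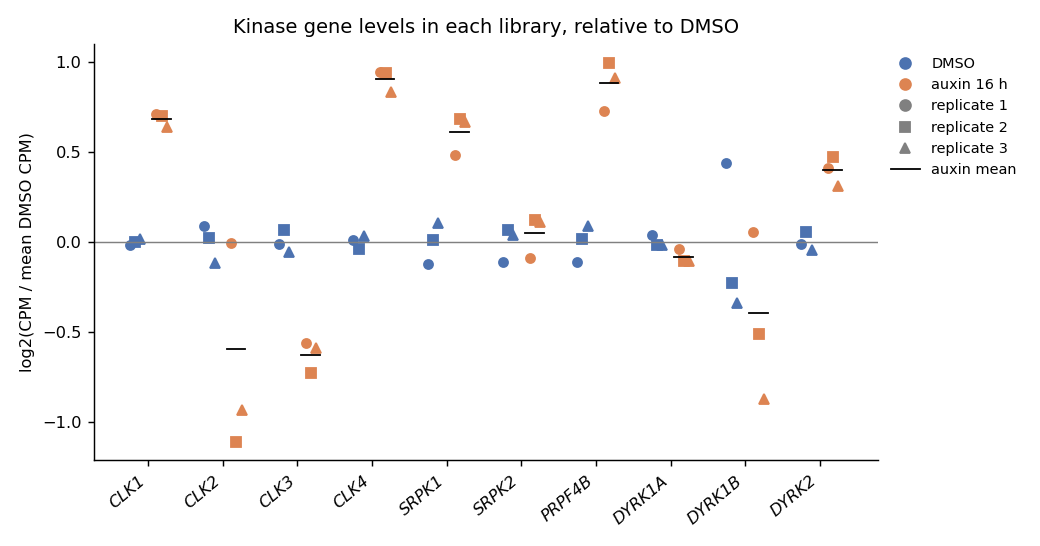
Level of each kinase gene in each library, as the log2 ratio of its CPM to the mean of the 3 DMSO libraries. Colours mark the treatment, symbols the replicate number and black lines the auxin mean. The auxin points of CLK1, CLK4, SRPK1, PRPF4B and DYRK2 lie above all DMSO points and those of CLK3 and DYRK1A below, while auxin replicate 1 of CLK2 lies with the DMSO libraries.

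By the CPM of single libraries, 5 members had all auxin libraries above all DMSO libraries, 2 had them below (CLK3 and DYRK1A), and 3 overlapped. Of all genes tested, 60.3% had groups that did not overlap, with 30.0% higher and 30.4% lower after auxin. The log2 fold change of CLK4 stood at percentile 91.6 of all genes tested, that of PRPF4B at 91.2 and that of CLK1 at 86.6. CLK3 stood at percentile 21.5. None of the members was therefore at an extreme of the distribution.

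GC content of the transcripts differed between the members called higher and the member called lower. The 5 members that rose had a GC content between 37.9% (CLK1) and 45.1% (DYRK2), and CLK3, which fell, had 56.0%. SRPK2, at 43.0%, lay within the range of the 5 and was not called. Genes within 2.5 percentage points of the GC content of CLK1 had a median log2 fold change of 0.08. The median was higher in the middle, at 0.16 near SRPK2 and 0.18 near DYRK1A (45.8% GC). It was -0.18 near CLK3 and -0.54 near DYRK1B, at 59.8% GC, so it did not fall steadily with GC content. After a correction of the fit for GC content, CLK1 was at 0.64 (adjusted p 5.88e-05), CLK4 at 0.86 (adjusted p 5.48e-05) and PRPF4B at 0.81 (adjusted p 6.10e-05). CLK3 was at -0.37 (adjusted p 0.00247) with the correction, and DYRK2 was at 0.23 (adjusted p 0.0130), each over 1.5 times smaller. DYRK1A was called lower, at -0.26 (adjusted p 0.00625), and DYRK1B changed sign to 0.19 (adjusted p 0.510). SRPK2 also changed sign, to -0.089 (adjusted p 0.254), and with the correction and the block together it was called lower, at -0.090 (adjusted p 0.0323). On log2(TPM + 0.1), limma called PRPF4B and CLK3 alone among the members, and DYRK2 was at 0.15 (adjusted p 0.646).

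**Figure D2:**
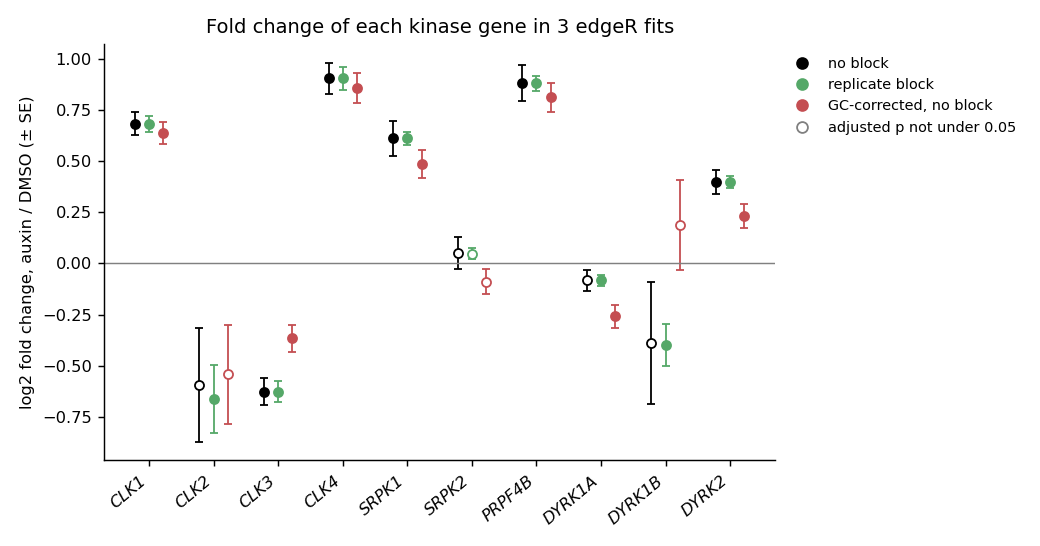
Log2 fold change of each kinase gene, auxin over DMSO, with its standard error, in edgeR fits without a block, with the replicate number as a block, and with GC-corrected offsets. Filled points have an adjusted p under 0.05. CLK1, CLK3, CLK4, SRPK1, PRPF4B and DYRK2 are filled in all 3 fits, and DYRK1B lies below 0 in the first 2 and above 0 after GC correction.

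Other genes share ground with some members. EDC3, on the opposite strand, overlaps 14857 bases of CLK3 and rose (log2 fold change 0.47, edgeR adjusted p 0.000360). HCN3 overlaps 909 bases of CLK2 on the opposite strand and fell (-1.36, adjusted p 0.0156), and KMT2E overlaps 3658 bases of SRPK2 on the opposite strand and fell (-0.46, adjusted p 0.000888). Whether counting used the strand is not stated in the sources used here, so reads of overlapping genes cannot be told apart with certainty. The pseudogene copies CLK2P1 and CLK3P2 were at or below 0.00585 CPM in both group means.

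Levels were compared between genes in TPM. In DMSO the order was SRPK1 at 64.8 ± 10.3 TPM, CLK3 at 33.2 ± 6.71, DYRK1A at 33.2 ± 11.6, SRPK2 at 30.2 ± 6.13, PRPF4B at 24.5 ± 3.85, CLK1 at 13.5 ± 2.76, DYRK2 at 10.9 ± 2.17, CLK2 at 7.08 ± 2.06, CLK4 at 3.62 ± 0.796 and DYRK1B at 1.04 ± 0.476 (SD, n = 3). Neighbours in this order overlapped in range from CLK3 down to PRPF4B and from CLK1 down to CLK2. SRPK1, CLK4 and DYRK1B were apart from their neighbours.

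After auxin the order of TPM was SRPK1 at 87.4 ± 5.98, PRPF4B at 39.1 ± 0.869, SRPK2 at 28.9 ± 2.56, DYRK1A at 28.5 ± 5.91, CLK3 at 20.0 ± 2.93, CLK1 at 19.3 ± 3.16, DYRK2 at 12.0 ± 1.46, CLK4 at 5.69 ± 0.807, CLK2 at 4.44 ± 2.53 and DYRK1B at 1.18 ± 0.493 (SD, n = 3). PRPF4B stood in second place, above SRPK2 without overlap. CLK3 and CLK1 overlapped in range here, as did SRPK2 with DYRK1A and CLK4 with CLK2. Summed TPM of the 4 CLK genes was 71.5, 51.0 and 49.7 in DMSO replicates 1, 2 and 3 and 60.0, 42.2 and 46.0 after auxin, so the ranges overlapped.

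The deposited TPM of whole transcripts shows which RNA forms carried these levels. Of 98 member transcripts tested in edgeR, 10 were called higher and 4 lower, beside 8.43% higher and 11.2% lower among 83072 transcripts of all genes, 19.7% in all. With the replicate block, 11 were higher and 4 lower, beside 12.8% and 14.1%, 27.0% in all. Of the member transcripts called without it, 9 of the 10 higher and all 4 lower were annotated as protein-coding. Over all genes, 4549 of the 6999 transcripts called higher and 6765 of the 9331 called lower were protein-coding. The transcript types are those of GENCODE, and reads that fit several transcripts were divided among them by the authors' model. The posterior SD of each estimate, which the authors deposited, is quoted where it was large.

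CLK4-201, the full-length coding form of CLK4, had 2.09, 1.47 and 1.79 TPM in DMSO and 4.43, 3.69 and 3.51 TPM after auxin. It rose by a log2 fold change of 1.29 with a standard error of 0.14 (edgeR adjusted p 0.00225), and its part of the CLK4 TPM went from 49.8% ± 4.77 to 68.2% ± 2.73. CLK1-201, the corresponding form of CLK1, had 2.10, 2.2 and 4.02 TPM in DMSO and 5.60, 7.70 and 7.55 TPM after auxin. The groups did not overlap, but the adjusted p of its log2 fold change of 1.47 was 0.0641. It was past the threshold in 5 of 11 alternatives, among them the block (adjusted p 0.0161) and the fit without DMSO replicate 3 (log2 fold change 1.96, adjusted p 0.0376). In others the adjusted p reached 0.196, and leaving out 1 library gave log2 fold changes down to 1.18.

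CLK1-203, a coding form that begins inside intron 5, rose from 2.26, 2.29 and 2.58 TPM to 5.33, 3.91 and 3.96 TPM (log2 fold change 1.01, adjusted p 0.0240). That call was lost when DMSO replicate 2 or any one auxin library was left out, with adjusted p between 0.0689 and 0.0936. CLK1-204, a form without exon 4 that is annotated as a target of nonsense-mediated decay (NMD), had 6.92, 3.99 and 2.59 TPM in DMSO and 6.22, 2.94 and 3.62 TPM after auxin. Its groups overlapped and its log2 fold change of 0.11 had an adjusted p of 0.836. CLK1-210, in which introns 3 and 4 are both kept, had between 1.13 and 1.99 TPM in DMSO and between 1.17 and 2.39 TPM after auxin (log2 fold change 0.28, adjusted p 0.430). The 2 named coding forms of CLK1 were therefore separated by treatment in every library, while the exon-skipped form and the form with introns 3 and 4 were not.

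In CLK2 both transcripts called lower were coding forms. CLK2-202, its main coding form, had 4.50, 3.33 and 2.66 TPM in DMSO and 1.59, 0.520 and 0.870 TPM after auxin, with no overlap, including auxin replicate 1. It fell by 1.69 on the log2 scale with a standard error of 0.31 (edgeR adjusted p 0.0146). Without DMSO replicate 2 the adjusted p was 0.0606 and without auxin replicate 3 it was 0.0651. CLK2-201, a second coding form, fell by 1.45 (adjusted p 0.0483, and 0.0538 with the block), a call also lost in 4 of 6 fits without 1 library (adjusted p from 0.0915 to 0.139), with a posterior SD of up to 32.0% of its count. CLK2-206 and CLK2-207, annotated as processed transcripts with no listed reading frame, took a larger part of the CLK2 TPM after auxin. CLK2-205, a processed transcript without exon 4, had 1.61, 1.27 and 1.63 TPM in DMSO and 1.24, 0.730 and 0.640 TPM after auxin, lower without overlap (log2 fold change -0.67, adjusted p 0.107). Its part of the CLK2 TPM was 22.2% ± 5.95 and 21.2% ± 5.26.

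CLK2-207, which keeps introns 4, 10 and 11 whole and 571 bases of intron 3, held 11.6% ± 4.33 of the CLK2 TPM in DMSO and 30.0% ± 4.12 after auxin. Its own level was 1.57, 0.570 and 0.510 TPM in DMSO and 2.54, 0.720 and 0.940 TPM after auxin, with replicate 1 high in both groups. The log2 fold change was 0.86 (adjusted p 0.269, and 0.0262 with the block). Leaving out single libraries moved it between 0.31 and 1.26, and the adjusted p reached 0.621 over all alternatives. CLK2-206, a form of 585 bases that covers 322 bases of intron 3, held 6.49% ± 3.48 in DMSO and 20.4% ± 1.60 after auxin. Its log2 fold change was 1.11 (adjusted p 0.231), and between 0.62 and 1.69 with single libraries left out. The share of all coding CLK2 transcripts was 55.9%, 63.9% and 58.6% in DMSO and 26.3%, 26.7% and 29.7% after auxin. Auxin replicate 1, whose total CLK2 level was like that of DMSO, was like the other auxin libraries in this share.

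CLK3-201, the main coding form of CLK3, fell from 21.2, 15.6 and 15.3 TPM to 9.05, 6.69 and 8.21 TPM (log2 fold change -0.95 with a standard error of 0.094, edgeR adjusted p 0.00172). Its part of the CLK3 TPM was 52.4% ± 0.976 in DMSO and 39.9% ± 1.63 after auxin. CLK3-222 went the other way and rose by 1.13 (adjusted p 0.0162), from 1.39, 0.740 and 0.650 TPM to 2.23, 1.38 and 1.68 TPM. Its call was lost without DMSO replicate 2 (adjusted p 0.0723), DMSO replicate 3 (0.0585) or auxin replicate 3 (0.0577). CLK3-222 is a single exon of 958 bases that covers the last 546 bases of intron 12 and runs into exon 13. CLK3-212, a coding form that extends into the stretch shared with EDC3, rose by 2.05 (adjusted p 0.0157) but stayed at or below 0.21 TPM, and its adjusted p was 0.0690 without DMSO replicate 2. CLK3-225, an NMD form, had a log2 fold change of -1.11 (adjusted p 0.0522, and 0.0191 with the block), with a posterior SD of up to 35.2% of its count.

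The splice site inside CLK3-222 is the 3′ splice site of intron 12 at chr15:74629695-74629718 (plus strand), and the site inside DYRK1B-207, described next, is the 3′ splice site of intron 4 at chr19:39830016-39830039 (minus strand). Both are shown because reads across these letters come from RNA in which the intron had not been removed. Capitals mark the exon.
CLK3 intron 12 and exon 13: gtccctgagcagAGTTACATGCTC
DYRK1B intron 4 and exon 5: ctgccccaacagGTGGTGAAAGCC

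DYRK1B-207, a form of 446 bases with 116 bases of intron 4, held 28.0%, 34.8% and 39.1% of the DYRK1B TPM in DMSO and 59.2%, 61.6% and 56.8% after auxin. Its level was 0.440, 0.230 and 0.340 TPM in DMSO and 1.03, 0.610 and 0.460 TPM after auxin, without overlap (log2 fold change 1.21, edgeR adjusted p 0.0595). Its posterior SD reached 24.5% of the count. The coding forms together held 66.0% ± 5.58 of the DYRK1B TPM in DMSO and 40.8% ± 2.41 after auxin. The TPM of the whole gene, which divides each transcript's count by its length, was 1.04 in the DMSO mean and 1.18 in the auxin mean, whereas the CPM means were 1.24 and 0.947.

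PRPF4B-201, the only coding form of PRPF4B, rose from 18.9, 15.9 and 18.1 TPM to 32.64, 32.75 and 32.96 TPM, a log2 fold change of 1.07 with a standard error of 0.17 (edgeR adjusted p 0.00892). PRPF4B-205, annotated as an NMD target, had 3.97, 1.95 and 1.83 TPM in DMSO and 3.51, 1.97 and 1.88 TPM after auxin (log2 fold change 0.13, adjusted p 0.747). The coding form thus took 72.5% ± 6.64 of the gene in DMSO and 83.9% ± 2.11 after auxin. Both main coding forms of SRPK1 rose. SRPK1-202 had a log2 fold change of 0.60 with a standard error of 0.063 (adjusted p 0.00213). SRPK1-204 had one of 0.68 with a standard error of 0.18 (adjusted p 0.0481), which was lost in 5 of 6 fits that left out a library, with adjusted p from 0.0540 to 0.160.

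SRPK1-202 and SRPK1-204 held 37.0% ± 4.26 and 55.4% ± 5.91 of the SRPK1 TPM in DMSO and 36.6% ± 2.82 and 58.2% ± 4.41 after auxin. DYRK2-202 rose by 0.45 on the log2 scale (adjusted p 0.0130), a call lost without DMSO replicate 2 (0.0518), DMSO replicate 3 (0.0568) or auxin replicate 2 (0.0648). SRPK2-202, the main SRPK2 form, had 23.5, 18.6 and 19.0 TPM in DMSO and 18.4, 16.9 and 17.4 TPM after auxin (log2 fold change -0.04, adjusted p 0.884). A minor coding form, SRPK2-201, rose from 0.630, 0.650 and 0.390 TPM to 1.37, 1.28 and 1.72 TPM (log2 fold change 1.57, adjusted p 0.0128), with a posterior SD of up to 41.8% of its count. That call was lost without DMSO replicate 3 (0.0532) or auxin replicate 2 or 3 (0.0519 each). SRPK2-214 was also called higher, but not with the block (adjusted p 0.0745) or without DMSO replicate 2 (0.121), auxin replicate 2 (0.0767) or auxin replicate 3 (0.0941), and its posterior SD exceeded its count in at least 1 library.

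The 4 named DYRK1A transcripts, DYRK1A-201, DYRK1A-218, DYRK1A-222 and DYRK1A-224, had adjusted p between 0.588 and 0.868. DYRK1A-201 held 31.9% ± 6.59 of the DYRK1A TPM in DMSO and 31.0% ± 4.32 after auxin. The lower call among DYRK1A forms was DYRK1A-221, which held 0.637% ± 0.0601 in DMSO and 0.348% ± 0.0190 after auxin (log2 fold change -0.94, adjusted p 0.0136). The adjusted p was 0.0597 without DMSO replicate 2, 0.0594 without auxin replicate 2 and 0.0581 without auxin replicate 3.

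The balance between annotated types was then tested in each gene as the log2 odds of retained-intron TPM against all other TPM of the gene, with limma over 6585 genes. CLK3 and DYRK1B rose in this share and no member fell, beside 19.4% of all genes called higher and 2.16% lower, 21.6% in all. The 2 called members among 8 tested are close to that background. CLK2 and DYRK2 have no annotated retained-intron transcript, so the intron-keeping CLK2 forms above do not enter this count. The median log2 odds difference was -0.46 over the 8 members and 0.09 over all genes tested.

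In CLK3, retained-intron transcripts held 9.47%, 7.49% and 6.92% of TPM in DMSO and 19.4%, 15.7% and 15.3% after auxin. The groups did not overlap, and the log2 odds difference was 1.21 with a standard error of 0.22 (limma adjusted p 0.00685). In DYRK1B the difference was 1.25 with a standard error of 0.22 (adjusted p 0.00535). Its level, 1.04 TPM in the DMSO mean and 1.18 after auxin, was close to the minimum of 1 TPM for this test. CLK1 had the reverse sign, with 28.6%, 26.6% and 22.2% in DMSO and 22.6%, 14.0% and 15.0% after auxin. Auxin replicate 1 lay just above DMSO replicate 3, and the log2 odds difference was -0.76 (adjusted p 0.0974). Without auxin replicate 1 it was -1.01 (adjusted p 0.0248), and with the block it was called, at an adjusted p of 0.0265. Leaving out single libraries moved it between -1.01 and -0.60, and the adjusted p reached 0.284 over all alternatives.

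CLK4 retained-intron transcripts held 27.2%, 30.1% and 23.1% of TPM in DMSO and 19.8%, 16.6% and 22.9% after auxin, without overlap (log2 odds difference -0.57, limma adjusted p 0.128). PRPF4B stood at 1.95% ± 0.818 and 1.23% ± 0.570 (-0.69, adjusted p 0.273), and SRPK1 at 2.65% ± 1.00 and 1.83% ± 0.662 (-0.54, adjusted p 0.366). With the block both were called lower, PRPF4B at an adjusted p of 0.0233 and SRPK1 at 0.0309. Under the block 3 of 8 members were called lower, CLK1 included, beside 6.3% of all genes, and 2 were called higher, beside 25.8%, 32.1% in all. SRPK2 and DYRK1A had shares under 2.1% in every library and adjusted p of 0.407 and 0.543.

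NMD transcripts were tested in the same way over 4946 genes. CLK4 fell in this share and no member rose among 6 tested, beside 4.95% of all genes lower and 13.4% higher, 18.4% in all. NMD forms held 13.5%, 10.1% and 12.0% of the CLK4 TPM in DMSO and 7.54%, 6.58% and 5.49% after auxin (log2 odds difference -0.89 with a standard error of 0.20, limma adjusted p 0.0199). The adjusted p was 0.0520 without DMSO replicate 1, 0.0726 without DMSO replicate 3, 0.0623 without auxin replicate 2 and 0.0752 without auxin replicate 3. The CLK4 shares did not overlap between groups, but the TPM of its NMD forms did. They were at 0.437 ± 0.155 TPM in DMSO and 0.377 ± 0.110 after auxin, not far above the 0.1 TPM added before the test. The coding forms of CLK4 were at 2.18 ± 0.406 and 4.19 ± 0.554 TPM. PRPF4B had NMD shares of 17.6%, 11.8% and 10.2% in DMSO and 9.73%, 5.72% and 5.86% after auxin, also without overlap. Its log2 odds difference of -0.99 had an adjusted p of 0.0821, of 0.00947 with the block and of 0.0382 without auxin replicate 1. Leaving out single libraries moved the difference between -1.25 and -0.73, and the adjusted p reached 0.224 over all alternatives. With the block, 2 of 6 members were called lower and none higher, beside 7.76% and 17.5% of all genes, 25.3% in all.

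NMD forms of CLK1, nearly all of them CLK1-204, held 41.5%, 34.0% and 21.4% of the CLK1 TPM in DMSO and 27.2%, 17.2% and 20.3% after auxin. The ranges overlapped (log2 odds difference -0.77, adjusted p 0.222). The median difference was -0.69 over the 6 members, of which 5 were below 0, and 0.05 over all genes tested.

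**Figure D3:**
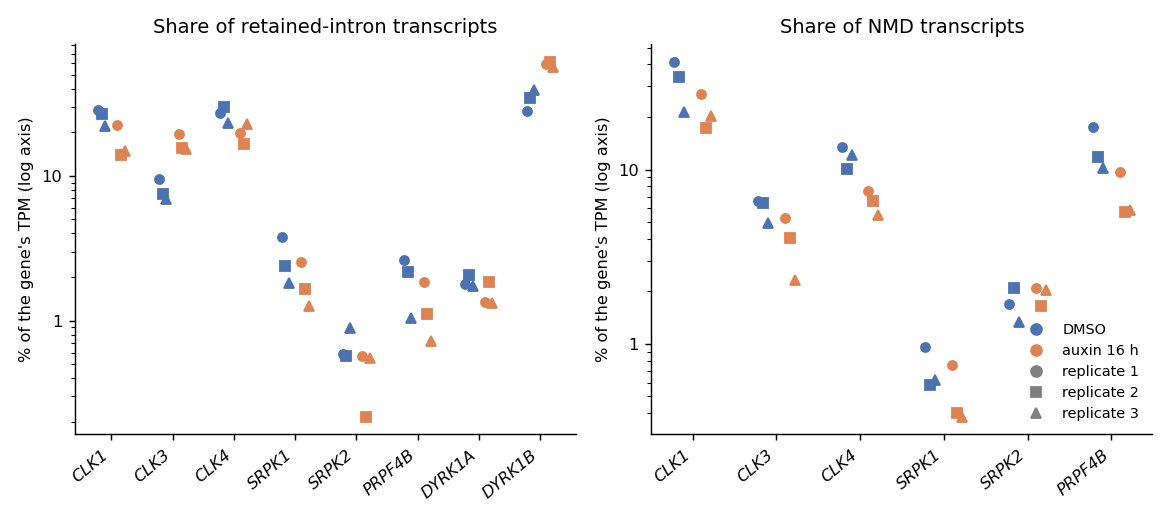
Share of each gene's TPM in transcripts annotated as retained intron (left) and as NMD targets (right), in percent on a log axis, in each library. Colours mark the treatment and symbols the replicate number. CLK3 and DYRK1B are higher after auxin on the left, and CLK4 and PRPF4B are lower without overlap on the right.

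To compare the 4 CLK genes on 1 scale, annotated transcripts were sorted by what they do at exon 4, a measure added after the annotation and the values had been seen. The included state has the exon between spliced introns, and the skipped state joins across it. The retained state keeps the whole of intron 3, of intron 4 or of both. Forms that cover only part of these introns, such as CLK2-206, CLK4-204 and CLK4-205, were in none of the states. Shares are of the TPM in these 3 states, which held 9.27 TPM of CLK1, 6.58 of CLK2, 25.1 of CLK3 and 2.40 of CLK4 in the DMSO mean. With 3 libraries against 3, a two-sided exact permutation test cannot give a p below 0.1. Adjusted over the 12 shares, none is below 0.2.

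CLK4 included exon 4 in 70.9%, 75.4% and 80.4% of this TPM in DMSO and in 86.3%, 91.0% and 89.2% after auxin. The difference was 13.3 percentage points without overlap (exact permutation p 0.1). Its skipped share was 8.94%, 7.69% and 6.70% in DMSO and 3.44%, 2.44% and 2.77% after auxin, and its retained share was 16.7% ± 3.63 and 8.32% ± 1.87. All 3 shares of CLK4 were separated by treatment, each with p 0.1, but they leave out 2 forms with part of an intron. CLK4-204, with 825 bases of intron 3, had 0.380, 0.410 and 0.290 TPM in DMSO and 0.600, 0.510 and 0.360 after auxin. Its log2 fold change was 0.60 (edgeR adjusted p 0.216). CLK4-205, with 273 bases of intron 4, had 0.470 TPM in auxin replicate 3 and 0 elsewhere. A retained share that holds these forms was not tested. As shares of expected counts in place of TPM, the skipped difference was -3.03 rather than -4.89 points.

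CLK1 included exon 4 in 19.1%, 28.6% and 49.9% in DMSO and in 38.4%, 63.4% and 60.2% after auxin. Each auxin library was above the DMSO library of the same number, but auxin replicate 1 was below DMSO replicate 3, and the difference of 21.5 points had an exact permutation p of 0.2. The skipped share was 58.8%, 51.1% and 32.4% in DMSO and 42.4%, 24.1% and 28.9% after auxin. The retained share was 20.1% ± 2.21 in DMSO and 14.2% ± 4.39 after auxin. In the skipped and retained shares, each auxin library was below the DMSO library of the same number. The CLK1 included share had an SD of 15.8 points in DMSO and 13.6 after auxin. Its range within each group was wider than the difference between the groups.

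CLK2 included exon 4 in 62.4%, 68.3% and 60.9% in DMSO and in 33.8%, 33.2% and 40.2% after auxin, 28.1 points lower without overlap (exact permutation p 0.1). Its retained share was 18.6%, 9.83% and 9.32% in DMSO and 44.5%, 33.2% and 35.6% after auxin, 25.2 points higher (p 0.1). This state held CLK2-207 alone, which also keeps introns 10 and 11 whole. The CLK2 shares therefore depend on reads from those introns as well, and the part of exon 4 in them was not tested. The skipped share of CLK2 was 23.6% ± 5.58 and 26.5% ± 6.28, with overlap (p 0.6). In CLK3 the included share was 74.0% ± 0.872 in DMSO and 71.6% ± 4.86 after auxin (p 0.7), and the skipped share was 23.1% ± 1.18 and 23.7% ± 3.88 (p 0.9). The retained share of CLK3 at exon 4 was 2.82% ± 0.826 and 4.70% ± 1.08, without overlap (p 0.1), and this difference of 1.88 points was 5.51 points as a share of expected counts.

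In TPM rather than shares, the included forms of CLK1 were at 2.85 ± 1.05 in DMSO and 7.0 ± 1.12 after auxin, and the skipped forms at 4.53 ± 2.2 and 4.29 ± 1.79. For CLK4 the included forms were at 1.80 ± 0.335 and 3.93 ± 0.522, and the retained forms at 0.410 ± 0.174 and 0.377 ± 0.144. For CLK2 the included forms were at 4.19 ± 0.995 and 1.24 ± 0.624, and the retained form at 0.883 ± 0.595 and 1.40 ± 0.993. For CLK3 the included forms were at 18.6 ± 3.24 and 8.97 ± 1.30, and the skipped forms at 5.78 ± 0.697 and 3.04 ± 1.04. In mean TPM the included forms differed more between groups than the other states in each of the 4 genes. This is a difference in amount and not in proportion. In CLK3 the skipped forms were lower too, and the included share was 74.0% in DMSO and 71.6% after auxin (exact permutation p 0.7). CLK1 and CLK4, whose exons are nearly the same in sequence, had more TPM in included forms after auxin, and CLK2 and CLK3 had less, without overlap in any of the 4. Ribosomal RNA depletion of total RNA also keeps unspliced precursor RNA, which cannot be told apart from finished RNA with a retained intron in these tables.

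**Figure D4:**
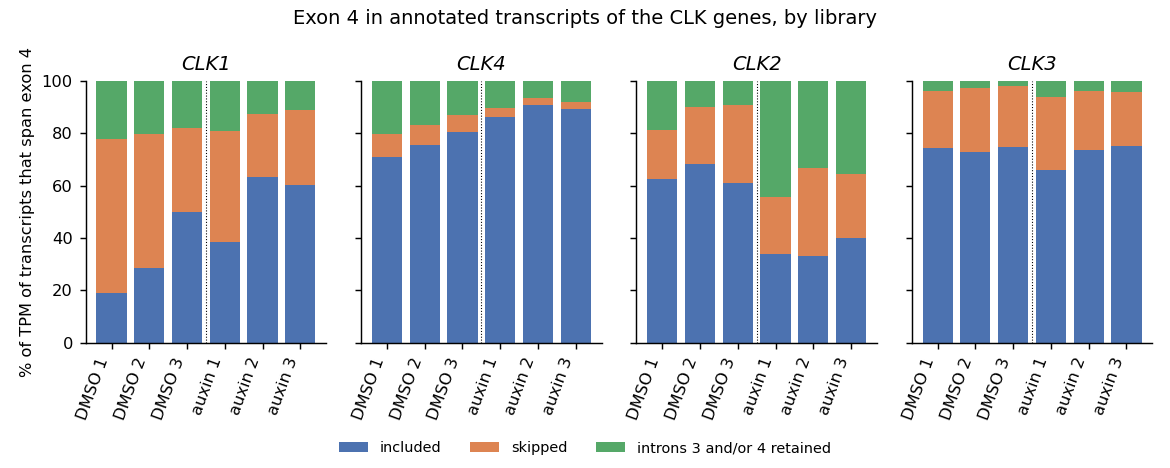
Exon 4 in annotated transcripts of the 4 CLK genes. Stacked bars give, for each library, the percent of the TPM in the 3 states (included, skipped, introns 3 and/or 4 retained). The included part is larger in every auxin library than in any DMSO library for CLK4 and smaller for CLK2, overlaps for CLK1, and is close to 74.0% in DMSO and 71.6% after auxin for CLK3.

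The genes that work with these kinases were counted in 5 lists, in which 52 of 54 genes were tested. Of these, 14 rose and 15 fell, with a median log2 fold change of 0.04, beside 25.4% and 26.9% of all genes. With the block 23 rose and 17 fell, beside 35.5% and 34.4% of all genes, 69.9% in all. Among the SR proteins and TRA2 splicing factors, which are substrates, 2 of 13 tested rose and 2 fell. The same list under the block had 6 higher and 4 lower, near that 69.9%.

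SRSF8 rose from 36.0 ± 1.47 to 50.5 ± 1.58 CPM (log2 fold change 0.49, edgeR adjusted p 0.000370), and SRSF7 from 82.2 ± 3.07 to 92.0 ± 2.00 CPM (0.16, adjusted p 0.0363). With GC correction SRSF7 was not called, at 0.030 (adjusted p 0.702). SRSF5 fell from 77.3 ± 0.934 to 61.1 ± 3.40 CPM (-0.34, adjusted p 0.00205). TRA2A, which activates exons rich in purines, fell from 122 ± 21.7 to 64.0 ± 10.6 CPM (-0.93, adjusted p 0.00284), the only substrate listed with a change near 2-fold.

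Among 8 phosphatases and targeting subunits, which take phosphate off again, 4 rose and 2 fell, and the median log2 fold change was 0.22. PPP1R10, a nuclear targeting subunit of protein phosphatase 1, rose from 133 ± 2.19 to 232 ± 1.78 CPM (0.80, adjusted p 2.30e-05). PPP1R8, the subunit known as NIPP1 that targets the enzyme to speckles, rose from 87.7 ± 7.22 to 106 ± 7.80 CPM (0.27, adjusted p 0.0305), but was at 0.092 (adjusted p 0.369) with GC correction. The catalytic subunits PPP1CA and PPP1CC fell. PPP1CA went from 115 ± 4.93 to 52.3 ± 3.21 CPM (-1.14, adjusted p 1.62e-05), or -0.55 (adjusted p 0.0116) with GC correction, and PPP1CC from 446 ± 30.3 to 338 ± 26.8 CPM (-0.40, adjusted p 0.00630).

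Of 7 import factors and chaperones of SR proteins and SRPKs, 1 rose and none fell. It was HSPA4, a cofactor of HSP70 chaperones, at 501 ± 48.1 CPM in DMSO and 643 ± 66.2 after auxin (0.36, edgeR adjusted p 0.0237), and with GC correction it was not called, at 0.23 (adjusted p 0.0558). TNPO3, the importin of SR proteins, was not among the called genes.

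Of 13 other kinases tested that belong to the same branch or act on SR proteins or the spliceosome, 3 rose and 6 fell, with a median of -0.16. DYRK4 rose from 12.5 ± 2.25 to 19.9 ± 3.94 CPM (0.68, adjusted p 0.0187), and TOP1, a topoisomerase reported to phosphorylate SR proteins, rose from 493 ± 61.0 to 658 ± 78.3 CPM (0.42, adjusted p 0.0247). AKT1, a growth-signalling kinase that can act upstream of SRPKs, fell from 157 ± 14.3 to 16.5 ± 2.45 CPM (-3.25, adjusted p 3.60e-06). CDK11B, a spliceosome kinase, fell from 39.0 ± 2.46 to 5.96 ± 0.207 CPM (-2.71, adjusted p 1.98e-06). CDK11B is nearly identical to CDK11A, and reads may have been split between these genes. CDK11A fell too, from 9.37 ± 0.512 to 3.50 ± 1.15 CPM (-1.42, adjusted p 0.00138). The falls of AKT1 and CDK11B were larger than any change among the 10 members.

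Among 11 partners and targets of DYRK kinases, 4 rose and 5 fell. DCAF7, the adaptor that binds DYRK1A and DYRK1B, rose from 224 ± 6.36 to 297 ± 9.11 CPM (0.41, edgeR adjusted p 0.000889), and NFATC2, a transcription factor that DYRK kinases phosphorylate, rose from 31.8 ± 1.94 to 46.5 ± 0.909 CPM (0.55, adjusted p 0.000322). LIN52, the subunit of the DREAM repressor complex that DYRK1A phosphorylates, fell from 24.3 ± 2.5 to 11.4 ± 1.03 CPM (-1.10, adjusted p 0.000141). NFATC4 fell from 0.246 ± 0.0518 to 0.0761 ± 0.0386 CPM (-1.64, adjusted p 0.0115, and -1.07 with GC correction), at a level near the filter.

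**Figure D5:**
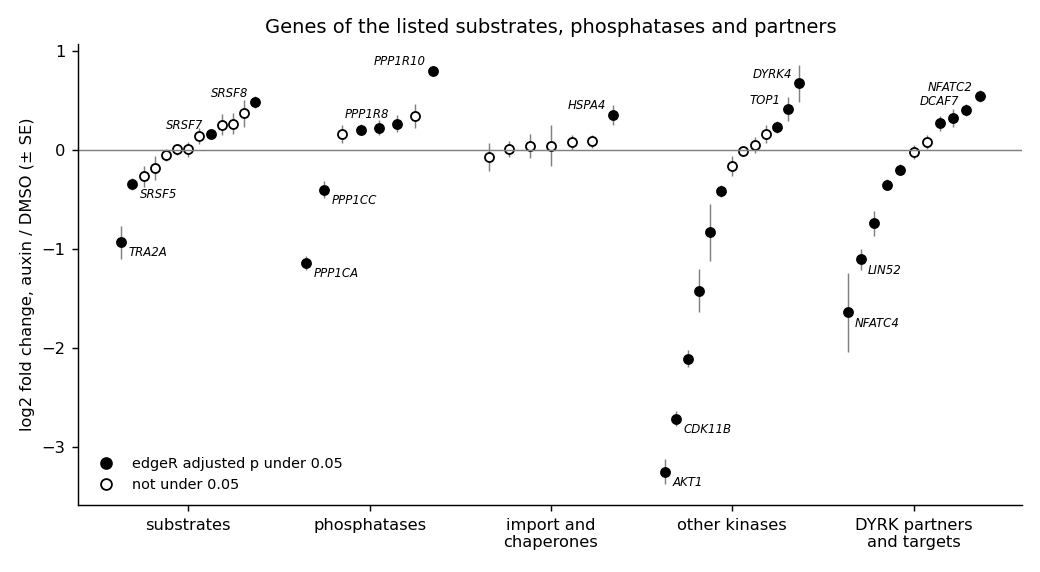
Log2 fold change, auxin over DMSO, with its standard error, of the genes tested in 5 lists: substrates, phosphatases, import factors and chaperones, other kinases, and DYRK partners and targets. Filled points have an edgeR adjusted p under 0.05, and named genes are the extremes of each list among those. AKT1 (-3.25) and CDK11B (-2.71) lie lowest.

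Genes with the most similar profile over the 6 libraries were found for each member by the root mean square difference of log2 CPM, each taken relative to its DMSO mean, among 12848 genes with at least 1 CPM. Nearest to CLK1 were DSC3, ZEB1 and NMT2, with differences of 0.0239, 0.0265 and 0.0318. Nearest to CLK4 were LYRM7, AMOTL1 and FBXO25, at 0.0245, 0.0401 and 0.0433. For CLK3 they were DNAJC27, LSR and PALM, at 0.0264, 0.0400 and 0.0457. CLK2, with its divided auxin libraries, had no gene as close, and the nearest were NUTM2D, AC007952.4 and ALS2CL, at 0.0794, 0.102 and 0.122.

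Nearest to SRPK1 were YRDC, SHLD2 and GNPDA1, between 0.0154 and 0.0188, and nearest to SRPK2 were SEL1L3, VPS41 and CSRNP2, between 0.0190 and 0.0208. For PRPF4B they were DNAJC2, ZSCAN21 and GALNT5, between 0.0221 and 0.0275. For DYRK1A they were SPPL3, GON4L and ARHGAP32, between 0.0137 and 0.0185, for DYRK2 ZNF326, KBTBD7 and UBE2H, between 0.0243 and 0.0309, and for DYRK1B LY6G5B, CLUHP3 and SOX18, between 0.114 and 0.118. No member appeared among the 3 nearest genes of another member.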

How the data were processed

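The authors deposited, for each of the 6 libraries, gene and transcript quantifications. Per the file headers, these hold an expected count (a model estimate, not always whole), its posterior standard deviation, and TPM. RSEM-like columns aside, STAR, DESeq2, bcl2fastq 2.20 and GRCh38 (hg38) are named in the submitters' processing notes without roles, and strand use in counting is not given in the sources used here. Per the labels' protocols, RNA with an integrity number of 10 was depleted of ribosomal RNA and sequenced for 151 paired-end cycles with a stranded kit. The 97 spike-in and phiX rows and 649 other rows without a human gene identifier were left out, and they held at most 0.00111% of a library's counts.

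Expected counts were rounded and tested with edgeR 4.0.16 (R 4.3.3), with filterByExpr, TMM factors and quasi-likelihood tests, separately for genes and transcripts. CPM uses the TMM-scaled totals. Shares were tested with limma 3.58.1 (eBayes with trend) on the log2 odds of TPM with 0.1 TPM added, in genes with a mean of at least 1 TPM. All p-values were adjusted by Benjamini-Hochberg over all features tested, at 0.05. Gene levels, transcript levels and the retained-intron share were also run on simulated data. The NMD share, block and GC correction were not. Gene changes of 1 and 0.58 on the log2 scale were recovered in 58.9% and 23.4%. That simulation changed 200 of 19421 genes, and 8.24% of its calls were false. In the data 52.3% of genes were called, so this recovery need not be that of the real gene test. Changes of 2 and 1 were recovered in 58.8% and 17.3% for transcripts and in 97.7% and 70.8% for shares. Those simulations changed 16614 of 78914 transcripts and 1317 of 6585 shares. A member without a call may still have changed. Fold changes of shares are on this log2 odds scale, which understates those of low transcripts. A transcript was counted as including exon 4 where its exon ends lay within 10 bases of the reference exon.

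The titles give biological replicates 1 to 3 in both groups, with no word on separate cultures, so p-values measure the spread between these samples. Same-numbered libraries deviated together from their group means, with correlations of 0.651, 0.265 and 0.276. The largest was that of replicate 1, the deepest library of both groups, and the part of depth in it was not tested. DMSO replicate 3 and auxin replicate 2 correlated at 0.312, above the same-number values of replicates 2 and 3. Pairing by number is thus an assumption drawn from these same data. The main fits and the permutation tests left it out. Fits with the replicate number as a block are given where they change a member's call, and for the pathway lists as counts. Within a group, counts of any pair of libraries differed by a chi-square of at least 34.8 per degree of freedom, more than sampling noise. No library was therefore a repeated count of another. At these depths the value cannot show that the samples were independent, and each was counted as a replicate because the titles number it so. Members had at least 150 expected counts in every library. The gene-level posterior SD was at most 0.0148% of the count. It covers how reads were divided among genes and does not measure the sampling noise of a count.

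The named transcripts hold at least 10% of their gene's TPM in the mean of either group. In each list the named genes are the 2 called genes with the largest change in either direction, and the 3 nearest genes were taken for each member. Transcripts called but under 10%, exon 4 states and genes that overlap a member were added after their values were seen. The members and lists were chosen with earlier results of these data known. The alternatives were other scalings, filters, pseudocounts, DESeq2 1.42.0, limma on TPM, GC-corrected offsets, the block, replicates 2 and 3 alone and leaving out each library.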

Additional observations from a re-analysis of the deposited data

How the results depend on the processing

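Leaving out single libraries gave between 3876 and 4979 genes higher and between 4493 and 5575 lower, and 5 members higher with 1 to 2 lower. It gave 4 to 16 listed pathway genes higher and 13 to 15 lower, 5 to 11 member transcripts higher and 1 to 5 lower, 1 to 2 members higher and 0 to 1 lower in retained-intron share, and 0 to 2 members lower in NMD share. At the gene level the second member called lower was CLK2, without auxin replicate 1. For the retained-intron share the same fit called 1 member higher, and DYRK1B was not among the genes tested in it.

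The replicate block gave 4 members lower, 23 pathway genes higher, 3 members lower in retained-intron share and 2 lower in NMD share. GC-corrected offsets gave 2 members lower and 8 pathway genes higher, and with the block 4 members and 23 pathway genes lower. DESeq2 gave 2 members and 9 member transcripts lower, and replicates 2 and 3 alone 2 members lower. Upper-quartile factors moved the median gene by 0.12 on the log2 scale and gave 23 pathway genes higher. limma on log2(TPM + 0.1) called 1017 genes higher and 3223 lower, and on log2(TPM + 1) it called 970 and 2966. Both called 1 member (PRPF4B) and 1 pathway gene higher and 9 pathway genes lower, and they moved the median gene by -0.15 and -0.14. For the retained-intron share, a pseudocount of 0.5 TPM gave 3 members lower and expected counts gave 1. For the NMD share, pseudocounts of 0.01 and 0.5 TPM gave 0 and 2 members lower and expected counts gave 2. The cause of these differences was not tested. Over the settings other than leaving out single libraries, between 970 and 7124 genes were called higher and between 2966 and 6789 lower. The share of all features called is not given here for each setting. The member counts therefore show how calls depend on the setting and are not results about the members.

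Some values changed sign. SRPK2 was at -0.089 with GC correction, -0.090 with GC correction and the block (called lower, adjusted p 0.0323), and -0.049 and -0.048 under limma with 0.1 and 1 TPM added. DYRK1B was at 0.19 with GC correction, 0.18 with GC correction and the block, and 0.18 and 0.095 under limma with 0.1 and 1 TPM added. Under upper-quartile factors DYRK1A was at 0.039, CLK4-208 at 0.022, DYRK1A-201 at 0.14, DYRK1A-222 at 0.085, DYRK1A-224 at 0.034 and SRPK2-202 at 0.15. Leaving out single libraries gave -0.11 to 0.30 for CLK1-204, -0.14 to 0.037 for DYRK1A-201, -0.090 to 0.31 for DYRK1A-218, -0.32 to 0.061 for DYRK1A-224, -0.13 to 0.12 for DYRK2-203, -0.064 to 0.32 for PRPF4B-205 and -0.11 to 0.035 for SRPK2-202. CLK3 and PRPF4B kept direction and call in all 17 alternatives tried at the gene level, and CLK1, CLK4, SRPK1 and DYRK2 in 15, with the limma fits on TPM as the exceptions. The lowest expected count of a member in any library was 150, in DYRK1B, and the part of depth in the calls was not tested.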
